A study of Homo sapiens with 9 samples.

Results

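Zinc metalloproteases of the ADAM, ADAMTS and MMP families cut proteins at the cell surface and in the extracellular matrix, and the tissue inhibitors of metalloproteinases (TIMPs) block them. Their mRNAs were examined in Huh-7 cells, a human hepatocellular carcinoma line, that were wild type (WT) or lacked vault RNA1-1 (1-1 KO) or vault RNA1-2 (1-2 KO), short noncoding RNAs. The members are the protein-coding genes of the deposited count table whose symbol is ADAM, ADAMTS, ADAMTSL, MMP or TIMP followed by a number. There were 71 of them among 60664 genes, namely 20 ADAM, 19 ADAMTS, 5 ADAMTSL, 23 MMP and 4 TIMP genes. The pseudogenes MMP23A, ADAM5 and ADAM6 were not counted.

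Each of the 3 lines was sequenced as 3 mRNA libraries. All cells were untreated and were harvested at 80% confluency in DMEM F12 medium with 10% FBS. WT and 1-1 KO cells came from another laboratory, whereas the 1-2 KO line was a single clone derived from the WT cells, so that a difference between lines and a difference between clones cannot be told apart. The libraries of a line are described as biological replicates, but neither the labels nor the methods say whether they came from separate cultures. If they did not, p-values measure only the spread between these libraries, which may be technical.

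Total counts were between 32384469 and 41782387 per library. All 8 hepatocyte or hepatoma markers were detected and together reached 13520 to 14440 CPM (counts divided by the TMM-scaled library size and multiplied by 1e6) in WT, 28940 to 29850 in 1-1 KO and 19960 to 21840 in 1-2 KO. Of the fibroblast or stellate cell markers 3 of 7 were tested, with sums of 158 to 169.7 CPM in WT, 228.8 to 239.8 in 1-1 KO and 69.65 to 74.93 in 1-2 KO, mostly LUM, while DCN, THY1, COL6A3 and DPT held at most 5 counts in a library. Of the endothelial markers 1 of 5 was tested, PECAM1, at a mean of 7.57 CPM in WT, 6.67 in 1-1 KO and 0.839 in 1-2 KO, and the leukocyte markers, 3 of 5 tested, summed to at most 3.83 CPM. The part of these marker differences in the results below was not tested. Of the deleted genes, VTRNA1-1 held 1 count over all 9 libraries and VTRNA1-2 held 0, WT included, so that these mRNA libraries cannot show their loss. Library 1 of 1-2 KO stood farthest from its replicates, where chi-square over its degrees of freedom was 15.1 and 16.1 against the others and 2.67 between these.

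ADAMs are membrane-anchored proteases that release growth factors, cytokines and adhesion proteins from the cell surface, a process called shedding, although several family members lack the zinc-binding site and do not cut. ADAMTS proteins are secreted and cleave proteoglycans, procollagens or von Willebrand factor, and ADAMTSL proteins resemble them without a protease domain. MMPs degrade collagens, laminins and other matrix proteins, either as secreted enzymes or as membrane-type MMPs. TIMPs bind the active site of MMPs, and TIMP3, which stays in the matrix, also inhibits ADAM17 and the aggrecanases.

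Of the 71 members, 39 passed the filter on low counts and were tested, namely 12 ADAM, 12 ADAMTS, 2 ADAMTSL, 9 MMP and 4 TIMP genes. The other 32 held at most 14 counts in any library, and 6 of them were at 0 in all 9. Of the 39, 29 reached the filter's level in all 3 lines. Another 3 (ADAM11, ADAM19 and ADAMTS10) reached it in 2 lines and 7 (ADAM32, ADAM33, ADAMTS5, ADAMTS7, ADAMTS16, MMP21 and MMP28) in 1 line, so that a difference was part of how these entered the test.

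**Figure D1:**
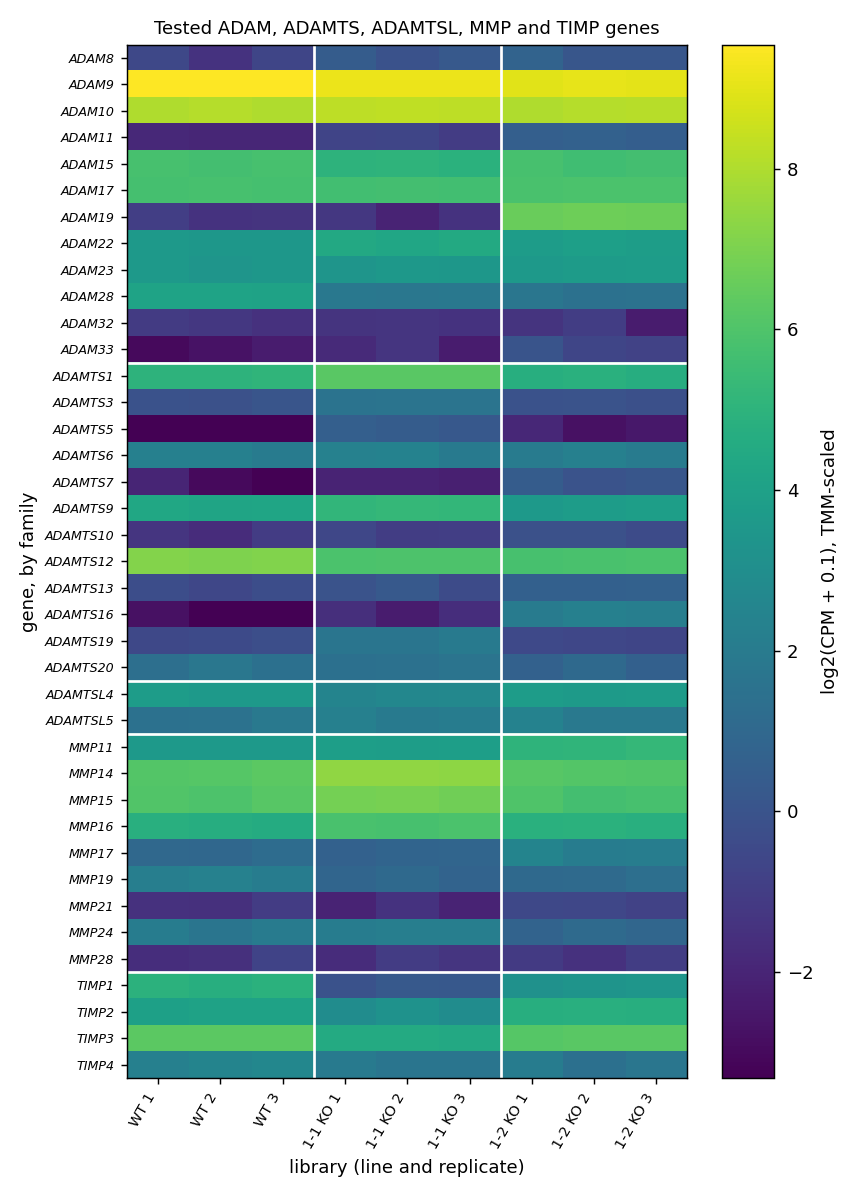
Level of the 39 tested members in the 9 libraries, as log2 of CPM plus 0.1, with rows by family and columns by line and replicate. ADAM19 is dark in WT and 1-1 KO and bright in all 3 libraries of 1-2 KO, and TIMP1 is darkest in 1-1 KO.

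In WT cells the highest level per length belonged to ADAM9, a broadly expressed sheddase, with 41.6 ± 0.601 CPM per kilobase of exon (SD, n = 3). TIMP1 followed with 19.9 ± 1.32, ahead of TIMP3 with 17.2 ± 0.136. Next came ADAM10, which sheds Notch receptors and cadherins, with 16.4 ± 0.551, and the membrane-type enzymes MMP14 with 15.9 ± 1.22 and MMP15 with 15.9 ± 1.22. From TIMP3 to MMP15 each gene overlapped with the next in this order, whereas ADAM9 and TIMP1 stood apart from the genes below them. ADAMTS12 (14.4 ± 0.406) and ADAM15 (8.18 ± 0.271) completed the first 8.

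The order differed between lines. In 1-1 KO, MMP14 had 36.7 ± 0.715 CPM per kilobase, ADAM9 32.3 ± 0.336 and MMP15 27.1 ± 1.61, whereas TIMP1 was 20th with 0.703 ± 0.0999. In 1-2 KO, ADAM9 remained first with 29.6 ± 1.2, and ADAM19, 36th in WT, was 6th with 13.1 ± 0.328. A level of at least 1 CPM per kilobase was reached by 18 members in WT, 18 in 1-1 KO and 21 in 1-2 KO. The order depended on the length used. Per kilobase of the longest transcript, ADAM9 was first in 1-1 KO with 80.8 ± 0.839, ahead of MMP14, TIMP1 was again 20th there, ADAM19 was 5th in 1-2 KO, and 21, 19 and 21 members reached 1 CPM per kilobase.

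**Figure D2:**
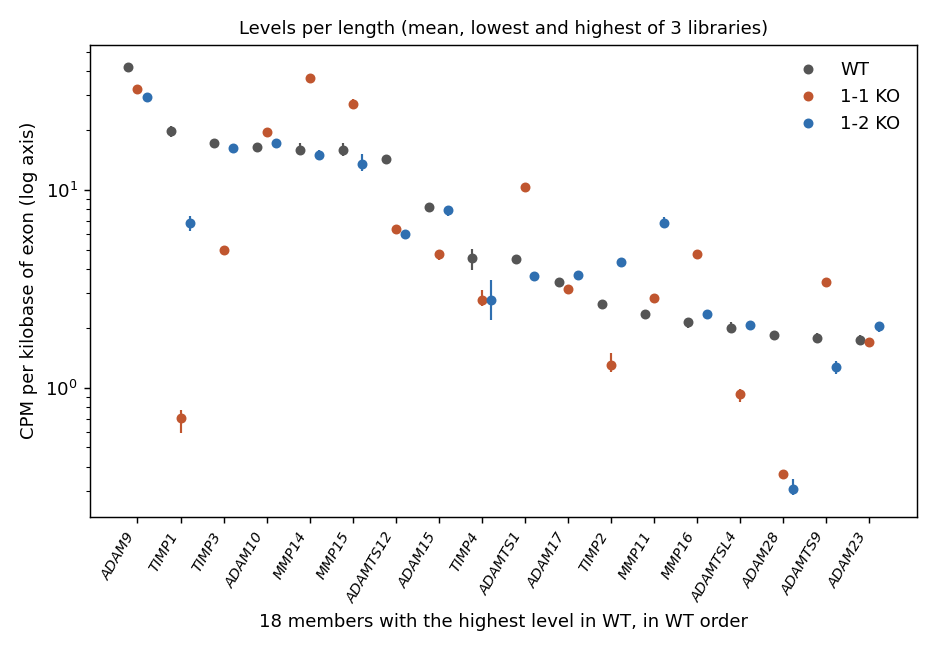
CPM per kilobase of exon on a log axis for the 18 members with the highest WT level, in WT order, with the mean (point) and the lowest to highest of 3 libraries (line). TIMP1 drops from the second place in WT to 0.703 in 1-1 KO, where MMP14 reaches 36.7.

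The secreted enzymes best known from inflamed or invaded tissue were at or near 0. MMP3, MMP26 and MMP27 had no counts in any library, and MMP1 (interstitial collagenase), MMP2 and MMP9 (gelatinases), MMP8 and MMP12 did not exceed 2 counts in any library. MMP7 (matrilysin) reached 5 counts, MMP13 (another collagenase) 6, MMP10 2 and MMP20 2. ADAMTS4, an aggrecanase, reached 4, and the procollagen proteases ADAMTS2 and ADAMTS14 stayed at 0. A count of 0 allows up to 3 counts, which is 0.0709 to 0.0951 CPM depending on the library and covers counting error only. Among these genes a difference between lines was not detectable at this depth.

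The promoters of the members were read from RefSeq (GRCh38.p14), as 250 bases before to 50 bases after each gene's start. There were 45 windows of 44 members. The other members had no window, among them ADAM9, ADAMTS1, ADAMTS5, MMP1, MMP2, MMP3, MMP9, MMP12, MMP13 and TIMP2. The letters below were not sought in these. The median GC content was 72.7% over the 26 windows of tested members and 53.7% over the 19 windows of members under the filter, beside 58.7% over all 35093 windows. The median ratio of observed to expected CpG was 0.748 and 0.424, beside 0.579. The letters TGANTCA are a loose form of the site of AP-1 factors, since N admits any base. They were sought on both strands and stood in 4 of the 45 windows (8.89%), beside 7.71% of all windows. These were ADAMTS12 (TGAATCA), starting at base -84, MMP7 (TGAGTCA) and MMP10 (TGAATCA), both at -67, and MMP20 (TGAATCA) at -112. Among the members with a window, only TIMP1 had the near variant TGAGTAA, at -101 (2.22% of the members' windows, beside 2.56% of all). This variant does not overlap with the former pattern. The letters GGGCGG, the core of the GC box, were found in 66.7% of the members' windows and 44.9% of all.

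Within both sets the windows varied. GC content ran from 52.0% (ADAMTS6) to 83.0% (ADAMTSL5) among the tested members and from 33.3% (MMP27) to 80.7% (ADAMTSL3) under the filter. MMP14, which was tested, had 55.0%, whereas ADAMTS2 and ADAMTS14, at 0 counts, had 80.3% and 79.7%. Stretches of MMP7 and MMP10, a pair of nearly silent genes on chromosome 11, are printed for their TGANTCA letters, and those of TIMP1, TIMP3, MMP14 and ADAM19 because the results below turn on these genes. All are upstream of the gene's annotated start, on the gene's strand, and capitals mark TGANTCA or TGAGTAA and GGGCGG in either orientation.
MMP7 (chr11:102530751-102530850, minus strand): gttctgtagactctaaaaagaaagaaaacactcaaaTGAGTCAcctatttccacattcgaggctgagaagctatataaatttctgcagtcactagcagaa
MMP10 (chr11:102780629-102780728, minus strand): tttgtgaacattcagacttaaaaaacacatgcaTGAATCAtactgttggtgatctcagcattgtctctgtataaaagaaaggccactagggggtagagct
TIMP1 (chrX:47582258-47582407, plus strand): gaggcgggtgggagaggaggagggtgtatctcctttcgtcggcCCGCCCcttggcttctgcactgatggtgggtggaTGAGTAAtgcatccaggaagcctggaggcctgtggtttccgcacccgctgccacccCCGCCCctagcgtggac
TIMP3 (chr22:32801555-32801704, plus strand): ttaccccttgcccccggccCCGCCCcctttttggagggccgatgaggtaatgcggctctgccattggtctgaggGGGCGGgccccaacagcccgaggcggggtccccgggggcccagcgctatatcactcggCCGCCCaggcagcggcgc
MMP14 (chr14:22836410-22836559, plus strand): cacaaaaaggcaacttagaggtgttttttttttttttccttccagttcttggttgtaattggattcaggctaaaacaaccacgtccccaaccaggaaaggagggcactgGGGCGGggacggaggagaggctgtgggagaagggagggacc
ADAM19 (chr5:157575776-157575925, minus strand): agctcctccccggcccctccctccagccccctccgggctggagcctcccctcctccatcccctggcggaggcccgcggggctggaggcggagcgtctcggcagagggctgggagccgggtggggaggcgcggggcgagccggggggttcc
MMP7 and MMP10 carry the TGANTCA letters and no GGGCGG, TIMP1, TIMP3 and MMP14 carry GGGCGG, and the ADAM19 stretch carries none of the 3 patterns. A match of letters is not a measured binding site.

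The first comparison asked which members differed between 1-1 KO and WT. Of the 39 tested members 16 rose, 11 fell and 12 did not pass the test at an adjusted p under 0.05 (edgeR's quasi-likelihood test, Benjamini-Hochberg over 17207 genes). That is 69.2% of the tested members, beside 63.4% of all tested genes, of which 32.5% were upregulated and 30.9% downregulated. The median log2 fold change of the tested members was 0.22, beside 0.0108 over all tested genes. This median moved with the members that entered it, to 0.0653 with at least 10 counts in every library, 0.0284 with DESeq2 and 0.0078 in a fit of only these lines. It was 0.1009 without library 2 of WT, 0.0828 without library 2 of 1-1 KO and 0.1304 to 0.1316 without any 1 library of 1-2 KO. Changes past 1 on the log2 scale were found in 10 members upward (25.6%, beside 9.4% of all genes) and in 7 downward (17.9%, beside 3.97%). Upward these include ADAM11, ADAM33, ADAMTS5 and ADAMTS16, which did not reach the filter's level in all lines. A difference was part of how they entered the test. Members with at least 10 counts in every library, such as TIMP1 and TIMP3, were also among those with changes past 1. A separate tally of such changes was not made for them in any comparison. Among the 29 members with at least 10 counts in every library, 12 were upregulated and 11 downregulated. Of all 14481 genes with such counts, 4974 were upregulated and 4771 downregulated.

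The comparison of 1-2 KO with WT gave 18 upregulated members, 11 downregulated ones and 10 not called. This is 74.4% of those tested, beside 54.4% of all genes (28.2% upregulated, 26.2% downregulated). The median log2 fold change was 0.06, beside 0.0194 over all tested genes, and its sign was not stable. It was -0.0811 with at least 10 counts in every library and -0.0209 without library 2 of WT. Without library 3 of WT or library 1 or 3 of 1-2 KO it was 0.0136, 0.0372 and 0.0421. Past 1 on the log2 scale were 11 upregulated members (28.2%, beside 8.62%) and 5 downregulated ones (12.8%, beside 3.06%). The upregulated ones include ADAM11, ADAM19, ADAM33, ADAMTS5, ADAMTS7, ADAMTS10 and ADAMTS16, which did not reach the filter's level in all lines. A difference was part of how they entered the test. ADAMTS5 was counted by its fitted log2 fold change of 5.0, although it was only bounded at 1.16-fold or more. With at least 10 counts in every library, 10 of 29 members were upregulated and 11 downregulated, beside 4003 and 4301 of 14481 genes. Both knockouts were compared with the same WT libraries.

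The knockouts were also compared with each other. Relative to 1-1 KO, 17 members were higher in 1-2 KO and 14 lower, together 79.5% of those tested, beside 65.3% of all genes (33.1% higher, 32.2% lower). With at least 10 counts in every library, 10 of 29 members were higher and 14 lower, beside 4763 higher and 5199 lower of 14481 genes. The balance thus turned both for the members and for all genes. The median of the log2 differences was 0.16, beside 0.0116, but -0.1046 with at least 10 counts in every library and 0.0276 without library 1 of 1-2 KO. Past 1 on the log2 scale were 12 higher (30.8%, beside 7.33%) and 9 lower members (23.1%, beside 6.81%). Of those that did not reach the filter's level in all lines, ADAM11, ADAM19, ADAM33, ADAMTS7, ADAMTS16 and MMP21 were among the higher and ADAMTS5 among the lower. In bulk RNA, fewer cells that express a gene and less RNA per cell cannot be told apart in any of these comparisons.

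**Figure D3:**
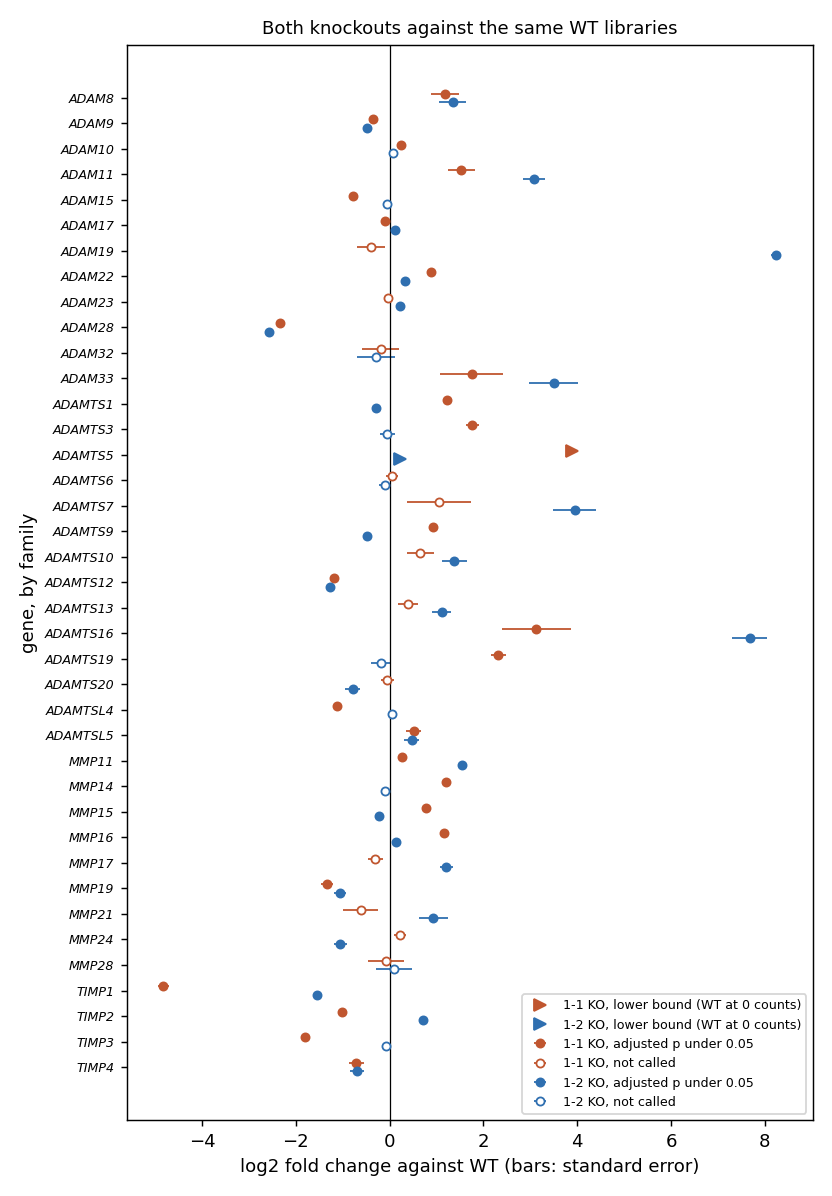
Log2 fold change of the 39 tested members in 1-1 KO (orange) and 1-2 KO (blue) against the same WT libraries, with the standard error. Filled points passed an adjusted p of 0.05, open points did not, and triangles are lower bounds for ADAMTS5, which had 0 counts in WT. All 4 TIMP genes lie left of 0 in 1-1 KO, and ADAM19 and ADAMTS16 lie farthest right in 1-2 KO.

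All 4 TIMP genes were downregulated in 1-1 KO. TIMP1 (ENSG00000102265, chromosome X from 47582408 to 47586789 on GRCh38, plus strand), a secreted inhibitor of most MMPs, was at 30.43, 26.67 and 29.17 CPM in WT, 0.8507, 1.118 and 1.079 in 1-1 KO and 8.95, 9.844 and 10.71 in 1-2 KO. The 3 lines did not overlap, with WT highest and 1-1 KO lowest. TIMP1 was 28.3-fold lower in 1-1 KO than in WT, with a log2 fold change of -4.82 ± 0.11 (SE, adjusted p = 2.92e-13 by edgeR). In 1-2 KO it was 2.92-fold lower (log2 fold change -1.55 ± 0.08, adjusted p = 1.34e-09 by edgeR). Its RNA was 9.68-fold higher in 1-2 KO than in 1-1 KO (adjusted p = 1.61e-11 by edgeR).

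TIMP3, the matrix-bound inhibitor (chromosome 22 from 32801705 to 32863041, plus strand), was at 78.97, 78.32 and 79.57 CPM in WT, 23.16, 23.49 and 21.55 in 1-1 KO and 71.84, 75.58 and 76.26 in 1-2 KO. Thus 1-1 KO stood apart, while 1-2 KO lay just under WT without overlap. It was 3.47-fold lower in 1-1 KO (log2 fold change -1.80 ± 0.04, adjusted p = 5.17e-13 by edgeR). The difference of -0.08 ± 0.04 in 1-2 KO was not called (adjusted p = 0.0984 by edgeR). It was called, at -0.25 with an adjusted p of 0.000146 by edgeR, when the median of the 50 neighbouring genes was removed.

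TIMP2, which inhibits MMP2 and also takes part in its activation by MMP14, moved in opposite directions. It was at 15.98, 16.75 and 16.77 CPM in WT, 7.609, 9.288 and 7.501 in 1-1 KO and 26.73, 27.7 and 26.35 in 1-2 KO, so that no libraries of different lines overlapped. It fell by 1.02 ± 0.08 on the log2 scale in 1-1 KO (adjusted p = 4.9e-08 by edgeR) and rose by 0.71 ± 0.07 in 1-2 KO (adjusted p = 1.24e-06 by edgeR). TIMP4, the least abundant inhibitor in WT in CPM, fell in both knockouts, by 0.71 on the log2 scale in 1-1 KO (adjusted p = 0.00102 by edgeR) and by 0.69 in 1-2 KO (adjusted p = 0.00147 by edgeR). Its libraries were at 4.699 to 6.023 CPM in WT, 3.088 to 3.71 in 1-1 KO and 2.637 to 4.178 in 1-2 KO. Of the exonic bases of TIMP4, 14.2% lie opposite an exon of SYN2, which held 115 counts over the 9 libraries beside 1407 for TIMP4. Whether the counting used the strand is not given in the sources used here.

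Among the membrane-type MMPs, 3 of 5 tested genes were upregulated in 1-1 KO (32.5% of all tested genes were) and none was downregulated (30.9% of all). MMP14 (MT1-MMP, chromosome 14 from 22836560 to 22849041, plus strand), which cleaves fibrillar collagen and activates pro-MMP2, was at 69.58, 71.15 and 80.02 CPM in WT and 171.7, 171.2 and 165.7 in 1-1 KO. In 1-2 KO it was at 73.19, 68.3 and 65.51 CPM and overlapped with WT. It was 2.30-fold higher in 1-1 KO (log2 fold change 1.21 ± 0.05, adjusted p = 1.59e-10 by edgeR) and not called in 1-2 KO (-0.09 ± 0.05, adjusted p = 0.164 by edgeR), where it was called without library 1 of 1-2 KO (-0.14, adjusted p = 0.0434 by edgeR). The 50 genes around MMP14 had a median of 0.53 in 1-1 KO, and with this median removed its log2 fold change was 0.68 (adjusted p = 7.34e-08 by edgeR).

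MMP15 and MMP16, which share the membrane anchor of MMP14, showed the same order of 1-1 KO above the other lines. MMP15 was at 62.48 to 72.69 CPM in WT, 108.1 to 121.7 in 1-1 KO and 52.61 to 64.03 in 1-2 KO. It rose by 0.77 ± 0.07 on the log2 scale in 1-1 KO (adjusted p = 3.15e-07 by edgeR) and was at -0.23 ± 0.07 in 1-2 KO (adjusted p = 0.014 by edgeR). The fall in 1-2 KO was lost with scaling by library size alone (adjusted p = 0.0682 by edgeR) and without library 3 of WT or library 2 or 3 of 1-2 KO (adjusted p = 0.0507, 0.0721 and 0.0529 by edgeR), and the libraries overlapped. MMP16 was at 24.28 to 27.34 CPM in WT, 55.78 to 59.91 in 1-1 KO and 27.8 to 29.38 in 1-2 KO. Its rise of 1.15 ± 0.05 in 1-1 KO (adjusted p = 2.11e-10 by edgeR) was accompanied by a difference of 0.14 ± 0.05 in 1-2 KO (adjusted p = 0.0334 by edgeR) that DESeq2 did not call (adjusted p = 0.0994). That call was also lost without library 2 or 3 of WT, library 1 of 1-1 KO or library 1 or 2 of 1-2 KO (adjusted p = 0.0654, 0.222, 0.0519, 0.0576 and 0.0999 by edgeR), and with the replicate number as a block (adjusted p = 0.0532 by edgeR).

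The GPI-anchored MMP17 and the neural membrane-type enzyme MMP24 were called in 1-2 KO and not in 1-1 KO, and in opposite directions. MMP17 was at 1.893 to 2.251 CPM in WT and 4.143 to 5.484 in 1-2 KO (log2 fold change 1.21 ± 0.14, adjusted p = 3.34e-06 by edgeR). MMP24 was at 3.147 to 4.171 CPM in WT and 1.614 to 2.059 in 1-2 KO (-1.05 ± 0.14, adjusted p = 1.38e-05 by edgeR). Both also differed between the knockouts, by 1.51 ± 0.14 and -1.27 ± 0.13 on the log2 scale (adjusted p = 2.3e-07 and 9.88e-07 by edgeR). Of the exonic bases of MMP24, 18.4% lie opposite MMP24OS, which held 2568 counts beside 1174 for MMP24. MMP25 was not tested, with at most 8 counts.

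**Figure D4:**
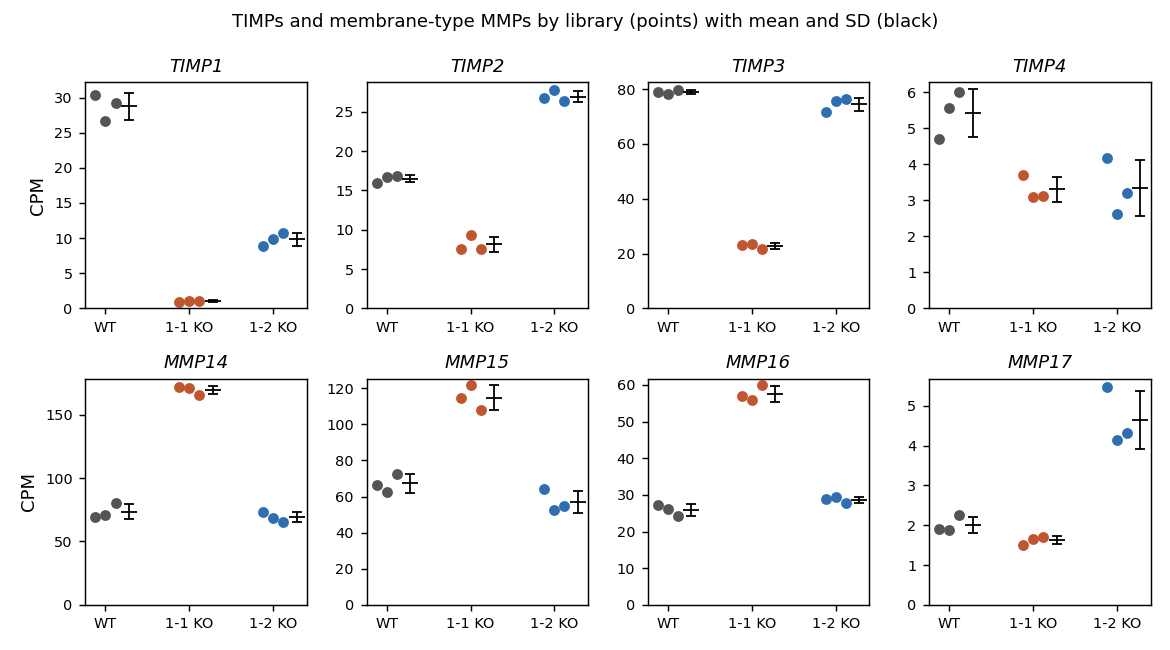
CPM of the 4 TIMP genes and 4 membrane-type MMPs in each library (points), with the mean and SD of each line in black and axes starting at 0. The 3 libraries of 1-1 KO lie under WT for all TIMP genes and over WT for MMP14, MMP15 and MMP16.

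Summed per length, the 4 TIMP genes were at 44.3 ± 1.26 CPM per kilobase in WT, 9.73 ± 0.4 in 1-1 KO and 30.2 ± 0.676 in 1-2 KO (SD, n = 3). The 6 membrane-type MMPs summed to 35.3 ± 2.34, 70.0 ± 2.03 and 32.4 ± 2.35 CPM per kilobase. The ratio of the first sum to the second was 1.297, 1.278 and 1.191 in the WT libraries, 0.1419, 0.1387 and 0.1367 in 1-1 KO and 0.8434, 0.9601 and 0.9989 in 1-2 KO. It was 9.03-fold lower in 1-1 KO than in WT and 1.34-fold lower in 1-2 KO, and no libraries of different lines overlapped. TIMP1 alone was at 19.9 CPM per kilobase in WT, 0.703 in 1-1 KO and 6.8 in 1-2 KO. The lower ratio in 1-1 KO thus rests in part on TIMP1. In 1-2 KO the lower TIMP sum came mostly from TIMP1, so that the ratio there does not show a fall of the TIMP genes in general. Between WT and 1-2 KO, TIMP2 went from 2.66 to 4.34, TIMP3 from 17.2 to 16.2 and TIMP4 from 4.55 to 2.79. A ratio without TIMP1 was not computed. These are RNA levels, and neither protein nor enzyme activity was measured in these files. The sums also do not take into account how well each TIMP inhibits each membrane-type MMP.

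The other tested MMPs were MMP11, MMP19, MMP21 and MMP28. MMP11 (stromelysin-3) was at 11.94 to 12.29 CPM in WT, 14.37 to 14.79 in 1-1 KO and 32.97 to 37.51 in 1-2 KO. It rose by 0.27 ± 0.06 in 1-1 KO (adjusted p = 0.00144 by edgeR) and by 1.53 ± 0.06 in 1-2 KO on the log2 scale (adjusted p = 5.37e-11 by edgeR). MMP11 accounts for most of the secreted group, whose sum was 3.65 ± 0.128 CPM per kilobase in WT, 3.54 ± 0.0535 in 1-1 KO and 7.67 ± 0.45 in 1-2 KO.

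MMP19 fell in both knockouts, from 4.153 to 4.987 CPM in WT to 1.618 to 2.018 in 1-1 KO and 1.994 to 2.495 in 1-2 KO. The log2 fold changes were -1.34 ± 0.13 and -1.06 ± 0.13 (adjusted p = 6.68e-07 and 7.66e-06 by edgeR). Of its exonic bases, 17.6% lie opposite TMEM198B, which held 986 counts beside 984 for MMP19. MMP21 had 9 to 12 counts in WT and 19 to 25 in 1-2 KO (log2 fold change 0.93 ± 0.30, adjusted p = 0.0172 by edgeR), which DESeq2 did not call (adjusted p = 0.142) and which was lost without library 1 or 2 of WT or library 1 of 1-2 KO (adjusted p = 0.0635, 0.0689 and 0.0503 by edgeR). MMP28 was not called in either knockout, with at most 16 counts in a library.

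The sheddases with the highest levels differed by less than 1 on the log2 scale. ADAM9 was at 726.4 to 747.4 CPM in WT, 565.6 to 577.5 in 1-1 KO and 503.6 to 546 in 1-2 KO, with both knockouts under WT. It fell by 0.36 ± 0.04 in 1-1 KO and by 0.49 ± 0.04 in 1-2 KO on the log2 scale (adjusted p = 6.7e-07 and 4.45e-08 by edgeR). ADAM10 was at 257.1 to 272.9 CPM in WT and rose to between 310 and 317.8 in 1-1 KO (0.25 ± 0.04, adjusted p = 5.54e-05 by edgeR). In 1-2 KO, at 261.5 to 282 CPM, it overlapped with WT and was not called (0.06 ± 0.04, adjusted p = 0.184 by edgeR). It was called there with library size alone or without library 1 of 1-2 KO (adjusted p = 0.0101 and 0.0238 by edgeR).

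ADAM17, the protease that releases TNF and several EGF receptor ligands, was at 53.92 to 55.23 CPM in WT, 50.2 to 51.4 in 1-1 KO and 58.35 to 59.81 in 1-2 KO. These narrow ranges did not overlap, and the log2 fold changes were -0.10 ± 0.04 and 0.12 ± 0.04 (adjusted p = 0.0211 and 0.0112 by edgeR). Neither call remained when the median of the neighbouring genes was removed, with 0.06 in 1-1 KO and 0.02 in 1-2 KO (adjusted p = 0.182 and 0.664 by edgeR). They were also lost without library 2 of WT or library 1 or 3 of 1-1 KO (adjusted p = 0.0594, 0.0674 and 0.0666) and, in 1-2 KO, without library 3 of WT (adjusted p = 0.0533, all by edgeR). DESeq2 did not call the difference in 1-2 KO (adjusted p = 0.0655).

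ADAM15, a disintegrin protease of epithelial cells, fell in 1-1 KO from between 51.81 and 54.94 CPM to between 29.22 and 32.83 (log2 fold change -0.79 ± 0.06, adjusted p = 2.31e-08 by edgeR). Its 50 neighbouring genes had a median of -0.70, and the call was lost when this was removed (-0.09, adjusted p = 0.179 by edgeR). In 1-2 KO ADAM15 overlapped with WT and was not called. ADAM28, which occurs in lymphocytes and several carcinomas, was at 16.74 to 17.73 CPM in WT, 3.38 to 3.505 in 1-1 KO and 2.687 to 3.252 in 1-2 KO. It was 5.02-fold and 5.97-fold lower (log2 fold changes -2.33 ± 0.08 and -2.58 ± 0.09, adjusted p = 2.09e-11 and 1.1e-11 by edgeR), with both knockouts far under WT.

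ADAM19, an EGF-family and neuregulin sheddase also called meltrin beta (ENSG00000135074, chromosome 5 from 157395534 to 157575775, minus strand), showed the widest contrast between the knockouts among the tested members. It had 17, 10 and 9 counts in WT, 14, 6 and 11 in 1-1 KO and 4166, 4133 and 4016 in 1-2 KO. WT and 1-1 KO overlapped, and all 3 libraries of 1-2 KO lay far above them. The level was 309.4-fold higher in 1-2 KO than in WT (log2 fold change 8.24 ± 0.11, adjusted p = 2.05e-15 by edgeR) and 405.8-fold higher than in 1-1 KO. The 50 genes around it on chromosome 5 had a median log2 fold change of 0.22 in 1-2 KO.

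Smaller groups of low counts lay behind ADAM33, ADAM11 and ADAM8. ADAM33, linked to airway disease, had 1, 2 and 3 counts in WT, 8, 12 and 4 in 1-1 KO and 39, 22 and 19 in 1-2 KO. It was 11.3-fold higher in 1-2 KO (adjusted p = 5.95e-05 by edgeR). The call in 1-1 KO (3.34-fold, adjusted p = 0.0346 by edgeR) was lost with DESeq2 (adjusted p = 0.0602), and without library 1 or 2 of WT or library 1 or 2 of 1-1 KO (adjusted p = 0.123, 0.084, 0.0619 and 0.143 by edgeR). ADAM11, an ADAM without the zinc-binding site, had 5 to 7 counts in WT, 16 to 22 in 1-1 KO and 54 to 59 in 1-2 KO, with log2 fold changes of 1.53 ± 0.28 and 3.07 ± 0.23 (adjusted p = 0.000295 and 6.84e-08 by edgeR). ADAM8, a leukocyte-associated sheddase, rose by 1.19 ± 0.30 and 1.34 ± 0.29 from 10 to 24 counts in WT (adjusted p = 0.00319 and 0.00144 by edgeR).

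The non-proteolytic ADAM22 and ADAM23 are LGI receptors best known in neurons. ADAM22 was at 11.16 to 11.89 CPM in WT and rose to 19.21 to 22.33 in 1-1 KO and 13.86 to 15.09 in 1-2 KO (0.89 ± 0.07 and 0.34 ± 0.07, adjusted p = 7.25e-08 and 0.00118 by edgeR). ADAM23 was called in 1-2 KO alone (0.23 ± 0.08, adjusted p = 0.02 by edgeR), and DESeq2 did not call it there (adjusted p = 0.0612). The call was lost without library 2 of WT or library 2 or 3 of 1-2 KO (adjusted p = 0.0896, 0.0503 and 0.0792 by edgeR), and when the neighbours' median was removed (adjusted p = 0.93 by edgeR), where ADAM23 was instead at -0.55 in 1-1 KO (adjusted p = 2.53e-05 by edgeR). ADAM32 was not called, with at most 16 counts.

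Among the proteoglycan-cleaving ADAMTS genes, 3 of 4 tested were upregulated in 1-1 KO, beside 32.5% of all tested genes. All 4 were lower in 1-2 KO than in 1-1 KO, beside 32.2% of all. ADAMTS5, included in both counts, reached the filter's level only in 1-1 KO, so that a difference was part of how it entered the test. ADAMTS1, which cleaves versican and aggrecan, was at 31.92 to 33.95 CPM in WT, 75.28 to 76.45 in 1-1 KO and 25.95 to 28.2 in 1-2 KO, with no overlap. It rose by 1.22 ± 0.04 on the log2 scale in 1-1 KO and fell by 0.28 ± 0.05 in 1-2 KO (adjusted p = 2.25e-11 and 0.000106 by edgeR). ADAMTS9, a versican-cleaving protease, followed the same order, with 18.08 to 20.2 CPM in WT, 35.28 to 38.03 in 1-1 KO and 12.56 to 14.6 in 1-2 KO. Its log2 fold changes were 0.93 ± 0.06 and -0.48 ± 0.07 (adjusted p = 1.55e-08 and 2.78e-05 by edgeR).

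ADAMTS5, the main aggrecanase of cartilage (chromosome 21 from 26917922 to 26967088, minus strand), was at 0 counts in all 3 WT libraries. It had 59, 51 and 44 counts in 1-1 KO and 7, 2 and 3 in 1-2 KO, so that 1-1 KO stood above both. Set against the limit of 3 counts in each WT library, it was at least 14.8-fold higher in 1-1 KO (adjusted p = 2.49e-07 by edgeR) and at least 1.16-fold higher in 1-2 KO (adjusted p = 0.00445 by edgeR). The latter bound rests on library 1 of 1-2 KO, since the others did not exceed 3 counts. ADAMTS5 was 12.8-fold lower in 1-2 KO than in 1-1 KO (log2 difference -3.61, and -4.24 without library 1 of 1-2 KO). ADAMTS20 was not called in 1-1 KO and fell by 0.79 ± 0.16 on the log2 scale in 1-2 KO, from 83 to 127 counts to 58 to 79 (adjusted p = 0.000691 by edgeR).

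As a sum per length, the 7 proteoglycan-cleaving ADAMTS genes reached 6.65 ± 0.131 CPM per kilobase in WT, 14.3 ± 0.0807 in 1-1 KO and 5.19 ± 0.22 in 1-2 KO. Of their large proteoglycan substrates, the hyalectans, VCAN and BCAN were tested. Versican (VCAN) fell from 271.2 ± 9.17 CPM in WT to 129.5 ± 1.41 in 1-1 KO and 44.7 ± 0.459 in 1-2 KO (log2 fold changes -1.07 ± 0.03 and -2.60 ± 0.04, adjusted p = 6.78e-12 and 2.64e-15 by edgeR). BCAN was not called in either knockout, and ACAN and NCAN were under the filter.

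ADAMTS3, which processes procollagens and activates VEGFC, rose in 1-1 KO from 30 to 34 counts to 120 to 124 (log2 fold change 1.76 ± 0.14, adjusted p = 5.54e-08 by edgeR) and stayed within 31 to 36 counts in 1-2 KO. ADAMTS19 behaved likewise, with 24 counts in each WT library, 127 to 154 in 1-1 KO and 22 to 26 in 1-2 KO. Its log2 fold change was 2.32 ± 0.16 in 1-1 KO (adjusted p = 1.43e-08 by edgeR) and it was not called in 1-2 KO (adjusted p = 0.529 by edgeR). Both were lower in 1-2 KO than in 1-1 KO (adjusted p = 2.76e-08 and 4.75e-09 by edgeR).

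ADAMTS16 and ADAMTS7 were highest in 1-2 KO. ADAMTS16 (chromosome 5 from 5140330 to 5320304, plus strand) had 2, 0 and 0 counts in WT, 10, 4 and 9 in 1-1 KO and 168, 190 and 177 in 1-2 KO. It was 238.6-fold higher in 1-2 KO than in WT, with a 95% counting interval of 65.7 to 1975 that covers counting error only (adjusted p = 5.98e-10 by edgeR), and 10.1-fold higher in 1-1 KO, with an interval of 2.49 to 88.2 (adjusted p = 0.00205 by edgeR). Both WT counts came from library 1, without which WT was at 0. The fold of ADAMTS7 likewise rested on library 1 of WT. This protease, which cleaves COMP and thrombospondin-1, had 6, 1 and 0 counts in WT, 6, 6 and 5 in 1-1 KO and 52, 35 and 39 in 1-2 KO. It was 17.4-fold higher in 1-2 KO (adjusted p = 5.16e-06 by edgeR) and overlapped with WT in 1-1 KO (adjusted p = 0.195 by edgeR), where without library 1 of WT it was called (adjusted p = 0.00982 by edgeR). The log2 fold change of ADAMTS7 in 1-2 KO was 3.94, and 5.87 without library 1 of WT.

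**Figure D5:**
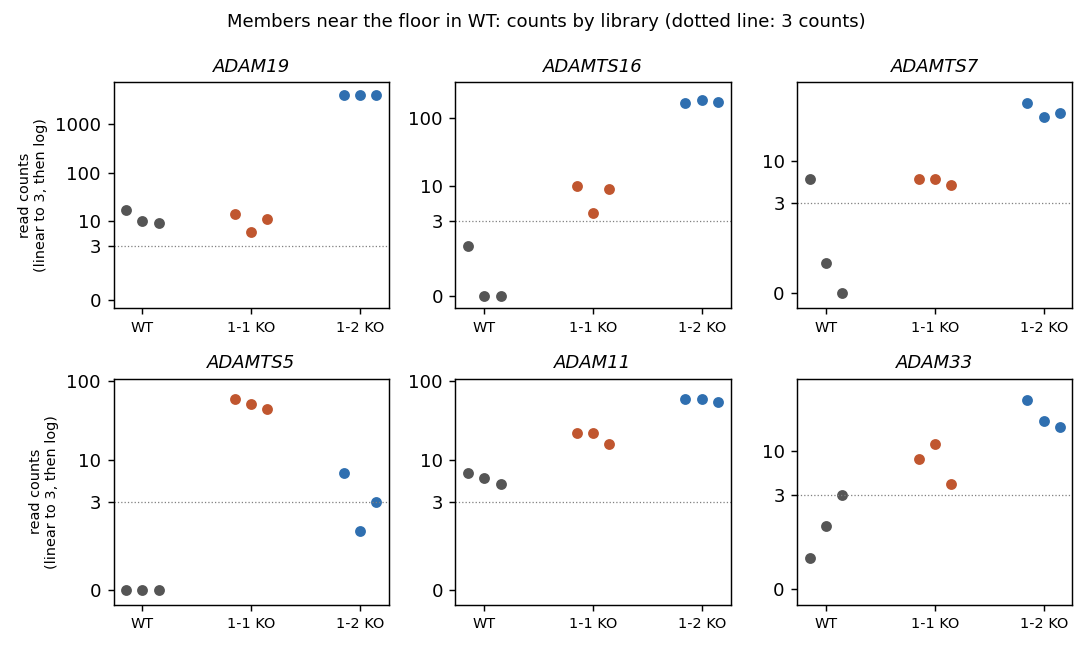
Read counts per library of 6 members near the floor in WT, on an axis that is linear up to 3 counts (dotted line) and logarithmic above. ADAM19, ADAMTS16 and ADAMTS7 rise in 1-2 KO, ADAMTS5 is highest in 1-1 KO, and ADAM11 and ADAM33 are highest in 1-2 KO with 1-1 KO between.

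ADAMTS12, a COMP-cleaving protease (chromosome 5 from 33523535 to 33892019, minus strand), was the most abundant ADAMTS per length in WT and fell in both knockouts. It was at 133.7 to 140.7 CPM in WT, 59.24 to 62.26 in 1-1 KO and 56.55 to 59.02 in 1-2 KO. The log2 fold changes were -1.18 ± 0.04 and -1.27 ± 0.04 (adjusted p = 5.3e-12 and 3.19e-12 by edgeR). In 1-2 KO its 50 neighbours had a median of -0.65, and without it ADAMTS12 was at -0.61 (adjusted p = 6.44e-09 by edgeR). ADAMTS13, the von Willebrand factor protease made in the liver, had 21 to 29 counts in WT and 58 to 60 in 1-2 KO (1.11 ± 0.20, adjusted p = 0.000298 by edgeR). In 1-1 KO, with 27 to 45 counts, it was not called (adjusted p = 0.135 by edgeR), although it was without library 3 of 1-1 KO (adjusted p = 0.0397 by edgeR).

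ADAMTS10, which binds fibrillin, rose by 1.38 ± 0.27 in 1-2 KO (adjusted p = 0.000548 by edgeR), and ADAMTS6 was not called in any comparison, except in 1-1 KO when the neighbours' median was removed (0.34, adjusted p = 0.0379 by edgeR). ADAMTSL4, also a fibrillin-binding protein, fell in 1-1 KO from 12.48 to 13.87 CPM to 5.482 to 6.349 (-1.12 ± 0.08, adjusted p = 1.94e-08 by edgeR), by 0.63 when the neighbours' median was removed. ADAMTSL5 rose by 0.51 ± 0.16 and 0.47 ± 0.16 (adjusted p = 0.0107 and 0.0217 by edgeR). In 1-1 KO this was lost when the neighbours' median was removed or without library 1 (adjusted p = 0.64 and 0.0534 by edgeR), and in 1-2 KO without library 1 or 2 of WT or library 1 of 1-2 KO (adjusted p = 0.0885, 0.0797 and 0.113 by edgeR).

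The partners of these enzymes were grouped by function, and the hyalectans were described above. The counts of each group stand beside 32.5% higher and 30.9% lower of all tested genes in 1-1 KO, and 28.2% and 26.2% in 1-2 KO. Differences between these shares were not tested. Of 7 tested genes for other inhibitors, the MMP inducer BSG and the clearance receptor LRP1, 5 were higher and 2 lower in 1-1 KO than in WT, and in 1-2 KO the numbers were 4 and 3. SPOCK2, a proteoglycan that affects membrane-type MMPs, rose by 1.53 ± 0.07 and the inhibitor TFPI2 by 1.89 ± 0.14 on the log2 scale in 1-1 KO (adjusted p = 4.77e-10 and 3.2e-08 by edgeR). TFPI2 rose likewise in 1-2 KO, at 1.79 ± 0.14, whereas SPOCK2 was at -0.63 ± 0.08 there (adjusted p = 8.34e-08 and 2.04e-05 by edgeR). In 1-2 KO, SPOCK3 rose by 4.73 ± 0.21 from a WT level of 0.25 CPM, and the plasma protease inhibitor A2M fell by 0.85 ± 0.04 from 633.4 CPM (adjusted p = 1.88e-10 and 8.82e-10 by edgeR). Both went the opposite way in 1-1 KO, SPOCK3 at -3.25 ± 0.59 with a mean of 0.0239 CPM and A2M at 0.56 ± 0.04 (adjusted p = 0.000239 and 4.85e-08 by edgeR).

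Of the 9 iRhom pathway and TspanC8 genes, whose products carry ADAM17 and ADAM10 to the surface, 2 were called higher and 6 lower in 1-1 KO, against 4 higher and 2 lower in 1-2 KO. TSPAN14 fell in both, by 0.51 ± 0.04 and 0.67 ± 0.04 (adjusted p = 8.46e-08 and 7.4e-09 by edgeR). TSPAN15 fell by 0.76 ± 0.07 in 1-1 KO (adjusted p = 2.97e-07 by edgeR) and was at -0.27 ± 0.07 in 1-2 KO (adjusted p = 0.00324 by edgeR). TSPAN5 rose by 1.14 ± 0.11 in 1-2 KO (adjusted p = 5.07e-07 by edgeR) and by 0.99 ± 0.11 in 1-1 KO (adjusted p = 1.7e-06 by edgeR). Of the 4 proprotein convertases, which remove the prodomains of many members, 1 rose and 2 fell in 1-1 KO and 1 rose in 1-2 KO. PCSK5 fell by 0.87 ± 0.07 and PCSK6 rose by 0.18 ± 0.05 in 1-1 KO (adjusted p = 4.13e-08 and 0.00359 by edgeR). FURIN rose by 0.26 ± 0.04 in 1-2 KO (adjusted p = 0.000155 by edgeR), where PCSK5 was not called (adjusted p = 0.411 by edgeR). In 1-1 KO FURIN was at -0.12 ± 0.04 (adjusted p = 0.0301 by edgeR).

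Of 17 tested shedding substrates, 10 were called higher and 3 lower in 1-1 KO, whereas 1-2 KO had 4 higher and 10 lower. The receptor ERBB4 rose in both, by 3.43 ± 0.14 and 2.91 ± 0.14 on the log2 scale, from 0.553 CPM in WT (adjusted p = 7.93e-11 and 7.4e-10 by edgeR). EGF rose by 2.23 ± 0.10 in 1-1 KO (adjusted p = 1.72e-10 by edgeR), and E-cadherin (CDH1) fell by 1.48 ± 0.04 in 1-2 KO, from 99.3 to 35.6 CPM (adjusted p = 4.53e-13 by edgeR). The other knockout went the opposite way, with EGF at -1.34 ± 0.13 in 1-2 KO and CDH1 at 0.48 ± 0.03 in 1-1 KO (adjusted p = 8.26e-07 and 1.71e-08 by edgeR). Of 8 tested related metalloproteases and ADAMTS-like proteins, 5 were called higher and 1 lower in 1-1 KO, against 5 higher and 2 lower in 1-2 KO. The procollagen protease TLL1 rose by 2.48 ± 0.07 and 2.01 ± 0.07 (adjusted p = 2.67e-12 and 2.86e-11 by edgeR), MEP1A (meprin alpha) by 1.09 ± 0.04 in 1-1 KO (adjusted p = 5.37e-11 by edgeR) and PAPPA by 1.66 ± 0.12 in 1-2 KO (adjusted p = 4.54e-08 by edgeR). PAPPA also rose in 1-1 KO (0.43 ± 0.13, adjusted p = 0.0122 by edgeR), and MEP1A was not called in 1-2 KO (adjusted p = 0.0564 by edgeR).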

How the data were processed

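Stranded mRNA libraries of 3 Huh-7 lines were analysed, 3 per line. The authors aligned reads with STAR (GRCh38, version 104) and counted them with featureCounts, and the deposited values are raw read counts. Whether the counting used the strand and how reads with several matches were treated is not given in the sources used here.

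Counts were tested in R 4.3.3 with edgeR 4.0.16, after filterByExpr (minimum count 10, minimum total 15) and TMM, in 1 fit of all 9 libraries with a term per line. P-values of the quasi-likelihood test received a Benjamini-Hochberg adjustment across 17207 genes with a threshold of 0.05. DESeq2 1.42.0 was an alternative. CPM used TMM-scaled library sizes, and levels per kilobase used the union of exons in GENCODE 44, which held 60463 of the 60664 identifiers. A line with 0 counts was set to 3 counts per library for a lower bound. Total counts of 32384469 or more per library leave counts under about 10 imprecise. Steps were tested on simulated data. Figures were drawn in Python 3.11.15 with matplotlib 3.10.9.

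Members, roles and partner lists were chosen with earlier results of these data known. Named with values were all TIMP genes, 14 members with textbook roles, the 8 largest called changes without overlap per comparison, the 8 highest in WT and members called in opposite directions. Of each partner group, the 2 genes with the smallest adjusted p per knockout were named. The other tested members were added after their values were seen. Alternatives covered the test, scaling, filter, libraries in the fit, a replicate term, the threshold, removal of the neighbours' median, gene length and leaving out each library.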

Additional observations from a re-analysis of the deposited data

Results flagged for a closer look

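In 5 members the knockouts moved in opposite directions against the same WT libraries and also differed from each other by the direct edgeR test. These were 5 of 39 tested members, beside 2012 of all 17207 tested genes (11.7%), so that the members' share was near that of all genes. The log2 fold change of 1-2 KO against 1-1 KO was 1.73 for TIMP2 (adjusted p = 1.15e-10 by edgeR), -1.50 for ADAMTS1 (adjusted p = 1.93e-12 by edgeR) and -1.42 for ADAMTS9 (adjusted p = 1.79e-10 by edgeR). It was -1.0 for MMP15 (adjusted p = 1.69e-08 by edgeR) and 0.22 for ADAM17 (adjusted p = 7.08e-05 by edgeR). Some calls against WT did not hold under every alternative. MMP15 in 1-2 KO was lost with library size alone (adjusted p = 0.0682 by edgeR), and ADAM17 in both knockouts with the median of the neighbouring genes removed (adjusted p = 0.182 and 0.664 by edgeR). The libraries of the knockouts did not overlap for any of the 5. For ADAM17 the difference was -0.04 and not called when the median of the neighbouring genes was removed (adjusted p = 0.375 by edgeR).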

How the results depend on the processing

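The counts of called members stayed within 1.5 times those reported under every alternative but 1. With at least 10 counts in every library, which left 29 members, 10 were upregulated in 1-2 KO compared to WT and 10 were higher and 14 lower in 1-2 KO than in 1-1 KO. The counts of all genes in that setting are given above. Leaving out each library in turn gave 14 to 17 upregulated and 11 to 12 downregulated members in 1-1 KO, 14 to 18 and 10 to 12 in 1-2 KO, and 16 to 17 higher and 13 to 15 lower members between the knockouts. DESeq2 on all libraries called 15 and 12 of 48 tested members, 14 and 11 of 47, and 17 and 13 of 48. Of all genes it called 4924 and 4998 of 22071, 4180 and 4213 of 21414, and 5266 and 4975 of 22728. The replicate numbers did not pair the libraries, since the deviations of libraries with the same number correlated between -0.187 and 0.047. With the replicate number as a block, 16 and 11, 17 and 11, and 17 and 14 members were called.

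Of 1835 recomputed values of 36 members, 1739 kept direction and side of the threshold, 73 lost the call, 10 gained it and 13 changed sign. Apart from ADAM17 with the neighbours' median removed (0.0576 in 1-1 KO, -0.0375 between the knockouts), these were differences that had not been called. With scaling by library size alone, ADAM15 was at 0.0055 and ADAMTS3 at 0.0064 in 1-2 KO, and ADAMTS3 was between -0.1049 and 0.0041 with 1 library left out, the latter without library 3 of 1-2 KO. With the neighbours' median removed, ADAM15 was at 0.13 in 1-2 KO, and ADAMTS12 was at 0.59 between the knockouts and was then called (adjusted p = 7.27e-09 by edgeR). TIMP4 between the knockouts was at -0.006 with at least 10 counts in every library, at -0.0083 in a fit of only these lines, and between -0.184 and 0.1565 with 1 library left out. Without library 3 of WT, library 2 or 3 of 1-1 KO or library 1 of 1-2 KO it was at -0.0085, -0.037, -0.026 and -0.184. The causes were not tested.

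With the longest transcript as the length, the ratio of summed TIMP to membrane-type MMP levels was 9.64-fold lower in 1-1 KO than in WT. Depth limits the members under about 10 counts, where a difference of a few reads decides a call.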
